A study of Mus musculus with 18 samples.

Results

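Aging was examined within bulk-HSCs, the population that is sorted from mouse bone marrow by surface phenotype alone and that therefore mixes Hoxb5-positive LT-HSCs, the long-term repopulating stem cells, with Hoxb5-negative ST-HSCs, whose repopulation is short-term. The comparison took the 6 bulk-HSC libraries among the 18 libraries of the series, namely 3 from young mice of 2 to 3 months and 3 from aged mice of 23 to 25 months; the other 12 libraries held LT-HSCs and ST-HSCs of the same ages. Members were chosen by these labels and by no measured value. All donors carried the Hoxb5-tri-mCherry reporter on the C57BL/6J background, at both ages, and received no treatment that the labels name. Cells were enriched for c-Kit on beads and double sorted, and ribosomal RNA was depleted before paired-end sequencing. Neither the labels nor the methods say whether the 3 libraries of an age came from separate mice. The p-values below rest on the spread between libraries within a group, pooled over all 18 libraries in a single fit. That spread may be partly technical.

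Hematopoietic stem cells sustain all blood lineages for life, mostly at rest in the marrow niche, where the receptor c-Kit, integrins and the chemokine receptor Cxcr4 tie them to their surroundings. With age this phenotypic compartment is known to grow in number while its output shifts toward platelets and myeloid cells, and genes of the megakaryocyte lineage and of cell adhesion are known to be expressed in part of it. Bulk RNA from such a mixed gate reports an average, so a change in the share of a cell subset and a change in RNA per cell cannot be told apart here.

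The analysis covered 12808 of the 24421 genes in the table, those averaging 1 or more over all 18 libraries in TMM-scaled CPM, the counts relative to a library's adjusted size. Total counts ranged from 17507155 to 21508230 in the young and from 20281147 to 22973844 in the aged bulk-HSC libraries, so depth did not separate the ages. The number of genes with at least 1 count did separate them, with 12103 to 12607 genes in the young and 13652 to 14133 in the aged libraries. Of the 9653 well-expressed genes, whose median over the 18 libraries was 200 counts or more, 29 to 67 were listed at 0 in each young bulk-HSC library and 2 to 5 in each aged one. Replicates were also further apart in the young group, with Spearman distances of 0.073 to 0.087 against 0.030 to 0.034 in the aged group. The 45S ribosomal precursor Rn45s took 13.9% to 14.1% of the young counts and 15.7% to 17.4% of the aged counts, a log2 fold change of 0.30 ± 0.07 (SE; adjusted p = 0.0252). That call was lost in 5 of 6 fits that left out 1 library, up to 0.131 without aged replicate 3, and with the detected-gene covariate (adjusted p = 0.199). The part of these library differences in the results was not tested. The count of detected genes was entered as a covariate in a further fit. Because that count itself separates the ages in bulk-HSCs, a call lost in that fit does not tell a library difference from an age effect. That fit is given below for some genes only, and calls without it need not have held in it.

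The transcripts of the sorting markers followed the gate in part. Kit, the receptor on which the cells were enriched, was at 1414, 1351 and 1369.9 CPM in the 3 young and 1569.9, 1444 and 1499 CPM in the 3 aged libraries (log2 fold change 0.13 ± 0.08, adjusted p = 0.557). Ly6a, which encodes the positive gate marker Sca-1, was at 79.9, 100.4 and 24.7 CPM in the young libraries. In the aged ones it was at 63.0, 84.3 and 81.9 CPM (edgeR adjusted p = 0.944). Of the gate's negative or low markers, Cd3e, Cd8a and Il7r lay under the expression filter. Itgam and Cd4 had up to 5.99 and 8.78 CPM in a bulk-HSC library. Flt3 was at 41.7, 26.4 and 25.7 CPM in the young and 6.17, 12.2 and 12.9 CPM in the aged libraries. Cd34, which marks progenitors and is low on long-term stem cells (chr1:194938821-194961292 on GRCm38.p6), stood at 173, 136 and 150.3 CPM in the young and 93.4, 51.5 and 75.1 CPM in the aged libraries, a log2 fold change of -1.06 ± 0.20 (adjusted p = 0.0094). Slamf1, which encodes the CD150 receptor of the stem cell gate, was at 34.5, 30.5 and 30.6 CPM and rose to 64.4, 56.0 and 65.4 CPM (log2 fold change 0.96 ± 0.22, adjusted p = 0.0313). Neither marker's young and aged libraries overlapped. The Cd34 call held when each of the 6 libraries was left out in turn but was lost in a fit of the bulk-HSC libraries alone (adjusted p = 0.075) and with the detected-gene covariate (adjusted p = 0.234), whereas that of Slamf1 was lost in every such fit, up to an adjusted p of 0.117 without aged replicate 3. Hoxb5, the gene of the reporter, was at 4.59, 1.72 and 5.61 CPM in the young and 6.17, 9.17 and 14.1 CPM in the aged libraries, with a log2 fold change of 1.301 ± 1.06 that did not pass the test (adjusted p = 0.722).

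With age, 253 genes changed in bulk-HSCs at an adjusted p under 0.05, which is 1.98% of the genes tested. Of these, 196 genes were higher in aged cells (1.53% of genes tested) and 57 were lower (0.445%). Scaling by library size alone gave 160 rises and 80 falls, and 66.7% of calls were then higher against 77.5% with TMM scaling. The median log2 fold change over all genes was 0.03. Among the rises, 164 had counts in at least 1 young library and a median ratio of aged to young mean CPM of 2.45, while the other 32 were at 0 in all 3 young libraries. The 57 falls had a median ratio of 0.541. All 196 rises and 55 of the 57 falls had no overlap between the 3 young and the 3 aged values. Over all genes tested, 13.4% were higher in every aged than in every young library and 9.29% were lower in every aged one. The falls of Sept7 and Has3 came from 1 young library each that was more than 5 times above the rest, for example 119, 142 and 4009 CPM of Sept7 in the young and 132, 146 and 128 CPM in the aged libraries. Sept7 and Has3 were named after their values were seen. The sign of 1 call, that of Sept7, changed without young replicate 3, and no other call changed sign in any of the 15 alternative analyses. The number of calls fell to 140, 127 and 114 when aged replicate 1, 2 or 3 was left out.

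**Figure D1:**
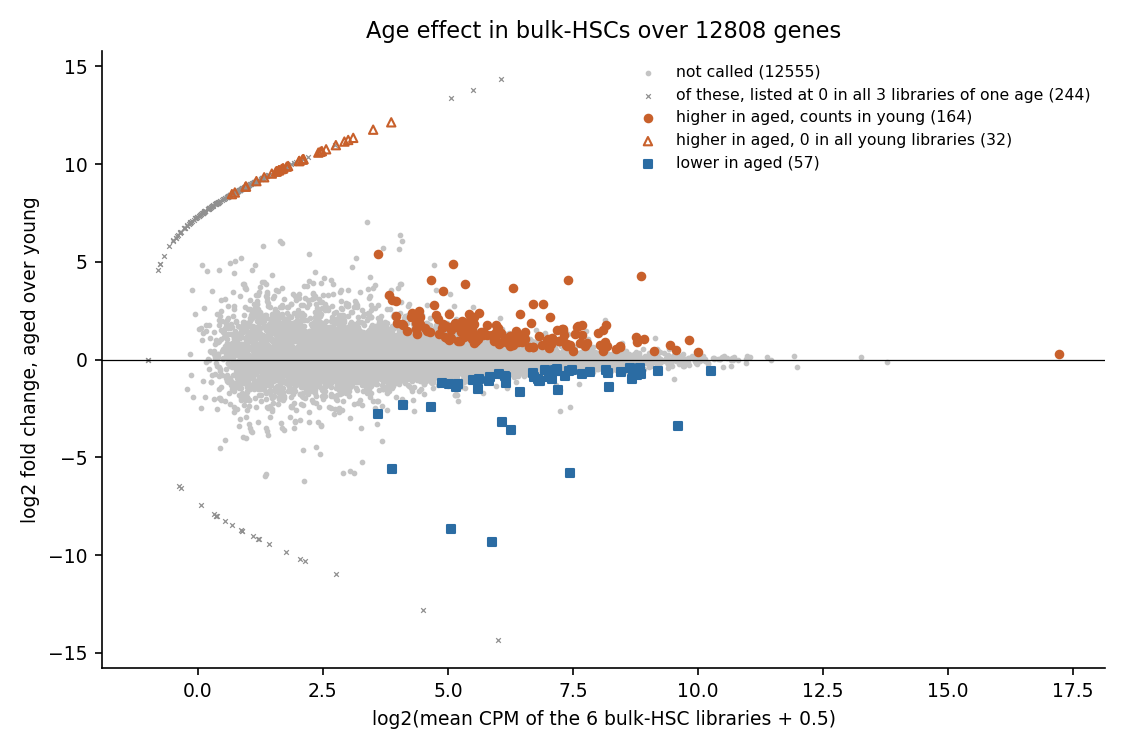
Age effect in bulk-HSCs for each of 12808 genes, with log2(mean CPM + 0.5) over the 6 bulk-HSC libraries on the x axis and the fitted log2 fold change of aged over young on the y axis. The 196 called rises lie above and the 57 called falls below the zero line; the arcs at the edges are genes at 0 in all 3 libraries of one age, whose fitted fold change is no measured ratio.

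Gene lists were then read one by one, and a gene can belong to more than 1 list. Each list is described by the number of its tested members that rose or fell and by its median log2 fold change, beside 0.03 over all genes. Of all genes tested, 1.53% were called higher and 0.445% lower, so 1 call in a list is not read as a change of the list. Over all 12808 genes, 6787 had a positive and 6019 a negative log2 fold change. The list of HSC aging genes had a median of 1.79, above the megakaryocyte and platelet list at 0.39 and the Notch and Wnt list at 0.37. At the other end stood the clustered histone genes at -0.62, mitosis at -0.58 and DNA replication at -0.41.

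**Figure D2:**
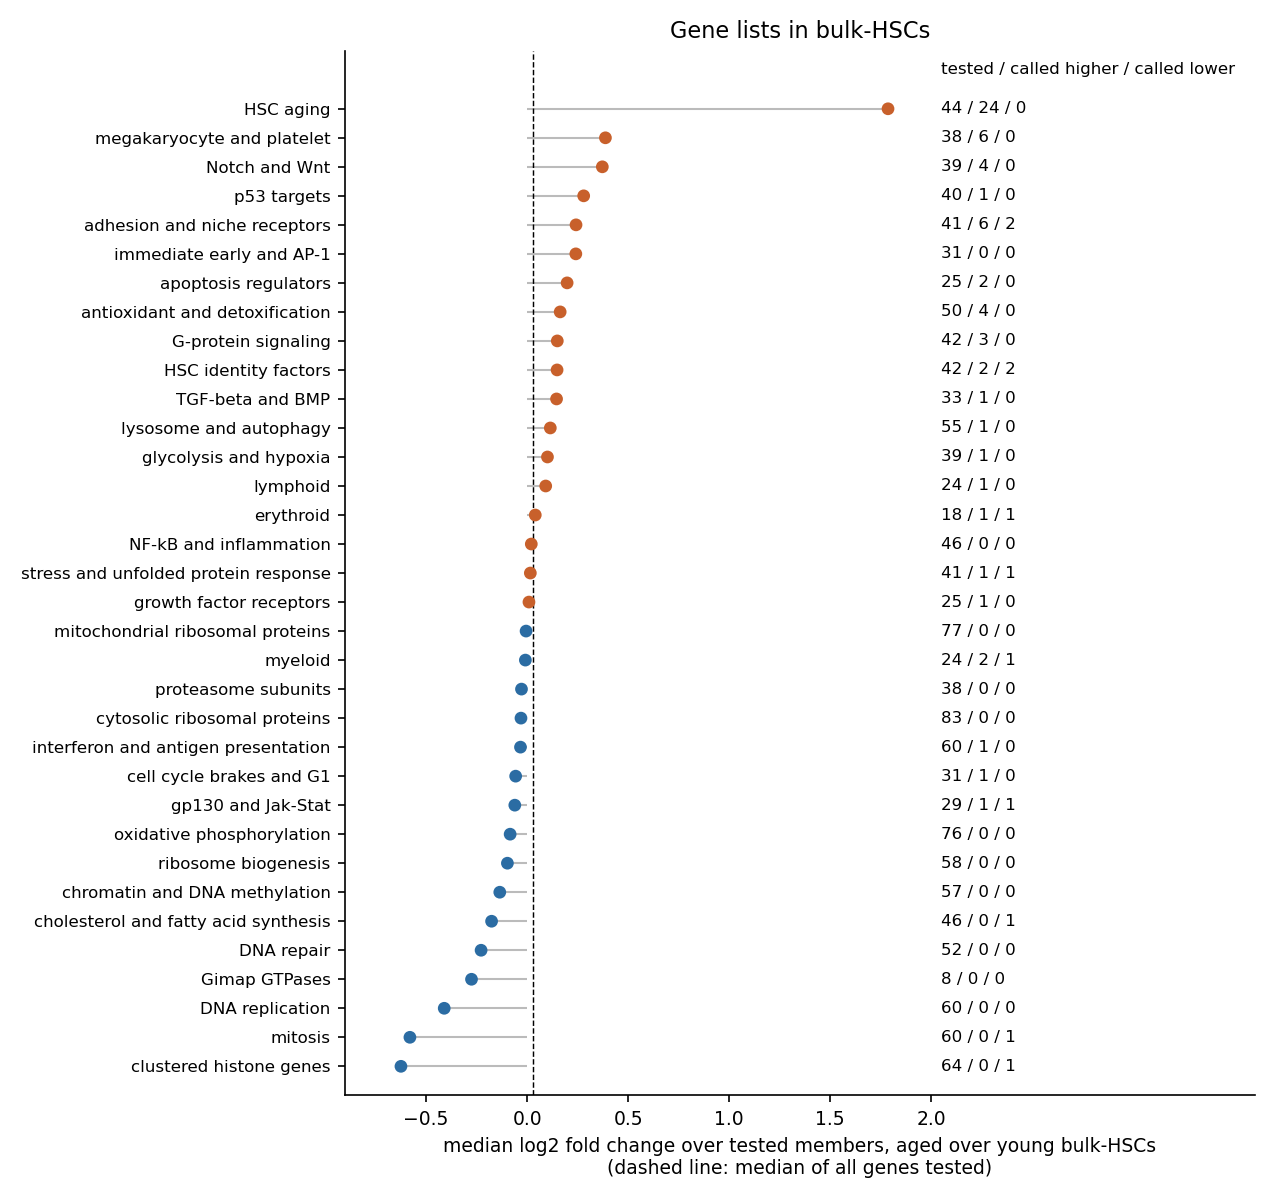
Median log2 fold change (x axis, aged over young bulk-HSCs) over the tested members of each gene list (rows), with the number of members tested, called higher and called lower printed on the right. The HSC aging list stands apart at 1.79 with 24 of 44 members higher, and the 3 lists of dividing cells lie at the bottom between -0.41 and -0.62.

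Genes known to rise in aged stem cells gave the most calls of any list. Of 44 such genes, all tested, 24 rose, 0 fell and 43 had a positive log2 fold change. Positions here and below are gene spans in the RefSeq annotation of GRCm38.p6. The list was written with earlier results of these data known and is no independent evidence of its direction. Selp, which encodes the adhesion receptor P-selectin (chr1:164115264-164150026), was at 4.92, 36.0 and 14.8 CPM in the young and 318, 327 and 313 CPM in the aged libraries, a log2 fold change of 4.10 ± 0.50 (adjusted p = 0.000241). Its lowest aged library was thus above its highest young library by a wide margin, and the 3 aged values were close to each other. Clca3a1, a member of a family of calcium-activated chloride channel regulators, went from 21.4, 44.3 and 20.5 CPM to 233, 214 and 184 CPM (log2 fold change 2.87 ± 0.33, adjusted p = 0.000163). Itgb3, the integrin beta chain shared by platelets and stem cells (chr11:104608000-104670476), rose from 88.7, 97.0 and 90.0 CPM to 309, 313 and 328 CPM (log2 fold change 1.79 ± 0.17, adjusted p = 3.15e-05). The caveolar protein gene Sdpr, also called Cavin2, stood at 34.5, 52.6 and 56.1 CPM in the young and 218, 215 and 212 CPM in the aged libraries (log2 fold change 2.17 ± 0.24, adjusted p = 0.000111).

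Enzymes of the same list moved likewise. Aldh1a1, an aldehyde dehydrogenase that makes retinoic acid (chr19:20492583-20643463), was at 54.1, 101 and 119.9 CPM in the young and 279, 294 and 296 CPM in the aged libraries (log2 fold change 1.66 ± 0.21, adjusted p = 0.000368). Gda, the guanine deaminase, rose by 1.76 ± 0.22 on the log2 scale, with 135, 138 and 119 CPM in the young and 402, 483 and 445 CPM in the aged libraries (adjusted p = 0.000295). For both genes the young libraries all lay below the aged ones. Prcp, a lysosomal carboxypeptidase, rose by 0.86 ± 0.12 (adjusted p = 0.00102), and Cd38, an ectoenzyme that consumes NAD, by 2.07 ± 0.45 (adjusted p = 0.0204). The 24 calls also included Alcam, Ehd3, Exoc6b, Fyb, Ghr, Gpr183, Klhl4, Neo1, Nupr1, Runx1t1, Sult1a1 and Tm4sf1. The members closest to the threshold without passing it were Osmr, the oncostatin M receptor, at 1.18, 0 and 0 CPM against 28.9, 40.2 and 24.9 CPM (adjusted p = 0.0615), and Plscr2, a phospholipid scramblase, at 3.08, 2.18 and 0 CPM against 54.5, 56.4 and 38.8 CPM (adjusted p = 0.0663). The calls of Selp, Clca3a1, Itgb3, Sdpr, Aldh1a1, Gda and Prcp each held in all 6 fits that left out 1 library, and that of Cd38 was lost without aged replicate 2 or aged replicate 3, to an adjusted p of 0.0712 without the latter.

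**Figure D3:**
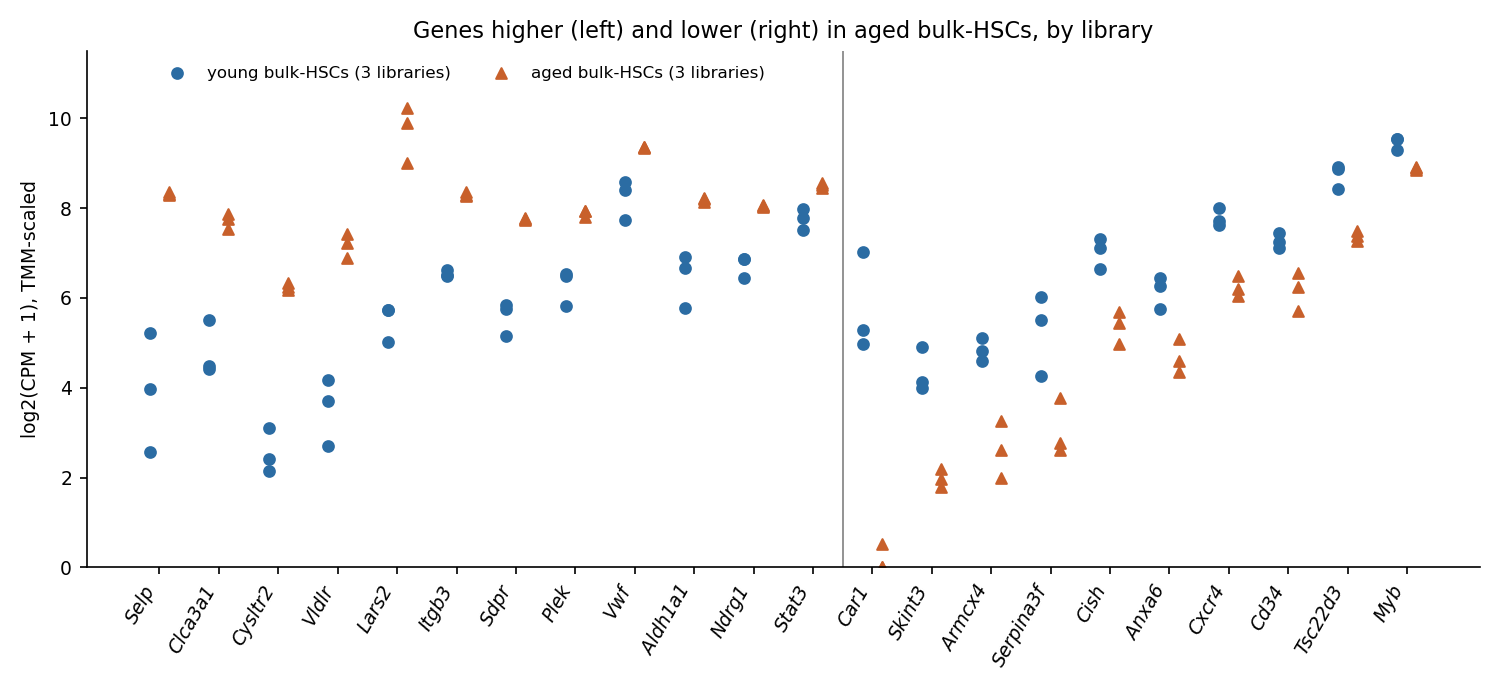
Level of 22 called genes in each bulk-HSC library, as log2(CPM + 1) on the y axis, with circles for the 3 young and triangles for the 3 aged libraries. In none of the 12 genes on the left or the 10 on the right do the ages overlap; Selp rises from between 4.92 and 36.0 CPM to between 313 and 327 CPM, and Car1 falls to 0.441 CPM or less.

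The megakaryocyte and platelet genes followed in the same direction, with 6 of 38 tested members higher and 28 positive. Besides Selp and Itgb3, these were Vwf, Plek, Timp3 and F2rl3. Selp, Itgb3 and Vwf are also called members of the HSC aging list. Vwf, which encodes von Willebrand factor and marks platelet-primed stem cells (chr6:125552948-125686679), was at 211, 335 and 384 CPM in the young and 650.1, 657 and 659.8 CPM in the aged libraries (log2 fold change 1.08 ± 0.20, adjusted p = 0.00784). The young libraries were spread over a wider range and all stayed below the aged ones. Plek, encoding the platelet protein kinase C substrate pleckstrin, rose from 55.5, 91.9 and 88.7 CPM to 245, 222 and 242 CPM (log2 fold change 1.59 ± 0.21, adjusted p = 0.000508). Timp3, an inhibitor of matrix metalloproteinases that lies within the span of Syn3, rose by 1.41 ± 0.27 (adjusted p = 0.00982), a call lost in the fit of the bulk-HSC libraries alone (adjusted p = 0.0779) and with the detected-gene covariate (adjusted p = 0.0806). F2rl3, the thrombin receptor PAR4, rose by 0.79 ± 0.19 (adjusted p = 0.0425), a call lost in 4 of the 6 fits without 1 library, to an adjusted p of 0.255 without aged replicate 3. The separate list of platelet cell markers summed to 139 to 184 CPM in the young and 165 to 178 CPM in the aged libraries. Among them, Pf4, the platelet factor of alpha granules, was at 12.9, 14.4 and 31.5 CPM in the young and 9.43, 7.90 and 15.97 CPM in the aged libraries, with overlapping ages and an adjusted p of 0.902.

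Adhesion and niche receptors changed in both directions, with 6 of 41 tested members higher and 2 lower. Of the rises, Selp, Itgb3, Alcam, Dsg2 and Neo1 are also called members of the HSC aging list, and Itga6 is not. Itga6, the laminin-binding integrin alpha chain, rose from 325, 347 and 255 CPM to 603, 547 and 566 CPM (log2 fold change 0.89 ± 0.16, adjusted p = 0.00576). Alcam, a cell adhesion molecule of the immunoglobulin family, rose by 1.28 ± 0.22 (adjusted p = 0.00482), Dsg2, a desmosomal cadherin, by 2.77 ± 0.54 (adjusted p = 0.0111), and Neo1, the netrin receptor neogenin, by 1.80 ± 0.39 (adjusted p = 0.0215). The Neo1 call was lost in 4 of the 6 fits that left out 1 library, up to an adjusted p of 0.0865 without young replicate 3. Cxcr4, the receptor for the marrow-retention chemokine Cxcl12 (chr1:128588199-128592299), fell from 207, 196 and 256 CPM in the young to 72.6, 88.3 and 64.8 CPM in the aged libraries (log2 fold change -1.54 ± 0.25, adjusted p = 0.00263). The highest aged library was thus well under the lowest young one. With the detected-gene covariate the calls of Cxcr4, Itga6 and Dsg2 were lost (adjusted p = 0.119, 0.0938 and 0.172), and that of Dsg2 also with limma-voom (adjusted p = 0.0573). Itga4, the alpha chain of the integrin that binds Vcam1, fell from 461, 472 and 348 CPM to 296, 267 and 280.3 CPM (log2 fold change -0.60 ± 0.13, adjusted p = 0.0194), a call lost in 4 of the 6 fits without 1 library, up to 0.0888 without aged replicate 2. The span of Itga4 overlaps that of Cerkl, and the counting is not known to use strand.

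Among HSC identity factors, 2 of 42 tested members rose and 2 fell. Myb, a transcription factor of proliferating progenitors, fell from 746, 742 and 622 CPM to 479, 470.1 and 458 CPM (log2 fold change -0.58 ± 0.11, adjusted p = 0.00982). The calls of Slamf1, which rose, and Cd34, which fell, are given above. Lmo2, the adaptor of the stem cell transcription complex, was just outside the threshold, at 758, 774 and 722 CPM against 946, 945 and 883 CPM (log2 fold change 0.30 ± 0.08, adjusted p = 0.055). Procr, which encodes the EPCR receptor, had a log2 fold change of 0.38 ± 0.15 (adjusted p = 0.227). The call of Myb was lost without aged replicate 3 (adjusted p = 0.0506) and with the detected-gene covariate (adjusted p = 0.119).

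Among receptors and regulators of G-protein signaling 3 of 42 tested members rose, and the list's median log2 fold change was 0.15. Cysltr2, a receptor for cysteinyl leukotrienes (chr14:73025672-73049114), was at 4.31, 7.62 and 3.46 CPM in the young and 74.7, 71.1 and 79.8 CPM in the aged libraries, a log2 fold change of 3.87 ± 0.37 (adjusted p = 3.15e-05). Its aged values stood within 71.1 and 79.8 CPM, while no young library exceeded 7.62 CPM. The span of Cysltr2 overlaps that of Gm9199, which also rose, so reads of the pair may be split between them. Gpr183, the receptor for oxysterols that guides immune cell migration, rose from 17.6, 8.35 and 5.79 CPM to 57.5, 35.1 and 67.9 CPM (log2 fold change 2.34 ± 0.44, adjusted p = 0.0094), and lies inside the span of Ubac2. Rgs18, which speeds the inactivation of G proteins in platelets, rose by 0.73 ± 0.14 (adjusted p = 0.0101). The Rgs18 call was lost with the detected-gene covariate (adjusted p = 0.212), and that of Gpr183 with limma-voom (adjusted p = 0.123) and in the fit of the bulk-HSC libraries alone (adjusted p = 0.0598).

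Of 39 tested Notch and Wnt genes 4 rose, and these belong to the Wnt side. Sfrp1, a secreted Wnt antagonist, was at 30.2, 13.4 and 16.4 CPM in the young and 82.1, 61.0 and 67.9 CPM in the aged libraries (log2 fold change 1.82 ± 0.31, adjusted p = 0.00446). The Wnt receptors Fzd6 and Fzd3 rose by 2.03 ± 0.37 (adjusted p = 0.00709) and 0.92 ± 0.21 (adjusted p = 0.0307), Fzd6 going from 20.8, 11.2 and 18.9 CPM to 74.0, 65.6 and 67.6 CPM. Dvl1, the adaptor that relays the signal of these receptors, rose by 0.85 ± 0.20 (adjusted p = 0.0289). Sfrp1 and Fzd6 held in all 6 fits without 1 library, whereas Fzd3 and Dvl1 were lost in 4 fits each, up to 0.127 without aged replicate 1 and 0.137 without aged replicate 2. With the detected-gene count as a covariate the calls of Sfrp1 and Fzd6 were lost (adjusted p = 0.0603 and 0.107), and the median of the Notch and Wnt list changed sign, from 0.37 to -0.07. Among growth factor receptors, Ghr, the growth hormone receptor, was the 1 of 25 tested members that rose, from 8.67, 8.49 and 5.28 CPM to 38.9, 19.0 and 19.4 CPM (log2 fold change 1.79 ± 0.36, adjusted p = 0.013). It was lost without aged replicate 1 (adjusted p = 0.0873) and without young replicate 3. Csf3r, the receptor for G-CSF, did not pass, at 92.2, 79.1 and 47.6 CPM against 132, 139 and 144 CPM (log2 fold change 0.92 ± 0.25, adjusted p = 0.0725), nor did Flt3, at 41.7, 26.4 and 25.7 CPM against 6.17, 12.2 and 12.9 CPM (log2 fold change -1.58 ± 0.49, adjusted p = 0.119). Of 33 tested TGF-beta and BMP genes Neo1 was the 1 called (3.03%, against 1.98% of all genes), with a list median of 0.15.

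The gp130 and Jak-Stat list held 1 rise and 1 fall among 29 tested members. Stat3, the transcription factor activated through gp130 receptors, rose from 219, 182 and 253 CPM in the young to 373, 363 and 346 CPM in the aged libraries (log2 fold change 0.73 ± 0.11, adjusted p = 0.00171). Cish, a cytokine-induced inhibitor of Stat5 signaling, fell from 98.5, 157 and 137 CPM to 42.4, 30.3 and 50.4 CPM (log2 fold change -1.67 ± 0.41, adjusted p = 0.0393). Other feedback inhibitors of the family did not pass the test. Socs3, the inhibitor of gp130 receptors, was at 5.54, 9.03 and 3.78 CPM in the young and 27.6, 31.4 and 29.4 CPM in the aged libraries (log2 fold change 2.27 ± 0.70, adjusted p = 0.117), and Socs2, which acts on the growth hormone receptor, at 6.60, 35.8 and 42.6 CPM and 12.6, 3.80 and 11.9 CPM (log2 fold change -1.58 ± 0.68, adjusted p = 0.308). The Socs3 libraries did not overlap between ages and those of Socs2 did. The Stat3 call held in all 6 fits without 1 library, whereas the Cish call was lost in 5 of them, up to an adjusted p of 0.176 without aged replicate 2. With the detected-gene covariate the log2 fold change of Cish was -0.94 (adjusted p = 0.445).

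The promoters of Cish and Socs3, the 2 inhibitors with opposite signs and Stat letters in the window, are shown because both are textbook Stat targets. They were taken from RefSeq (GRCm38.p6, the patch release of mm10), from 250 bases before to 50 bases after the annotated start, and read 5′ to 3′ on the gene's strand. Capitals mark matches to the Stat letters TTCNNNGAA, which read as the same pattern on both strands.
Cish promoter (chr9:107296409-107296708, plus strand): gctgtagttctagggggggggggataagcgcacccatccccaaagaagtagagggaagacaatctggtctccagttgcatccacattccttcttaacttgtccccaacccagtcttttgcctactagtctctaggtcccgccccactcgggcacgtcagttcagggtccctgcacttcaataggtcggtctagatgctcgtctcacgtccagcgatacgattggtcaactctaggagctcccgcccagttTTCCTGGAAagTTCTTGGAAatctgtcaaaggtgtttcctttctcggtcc
Socs3 promoter (chr11:117969317-117969616, minus strand): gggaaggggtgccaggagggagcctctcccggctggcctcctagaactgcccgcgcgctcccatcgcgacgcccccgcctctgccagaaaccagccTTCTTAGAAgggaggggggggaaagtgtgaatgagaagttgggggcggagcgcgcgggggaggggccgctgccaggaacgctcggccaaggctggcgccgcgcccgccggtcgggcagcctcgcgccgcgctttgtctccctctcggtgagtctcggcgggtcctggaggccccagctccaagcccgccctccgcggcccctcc
Cish held 2 matches, which began at the start site and 11 bases after it, and Socs3 held 1, which began 154 bases before it. Among tested genes with a promoter in the table, 806 of 9677 held such letters (8.33%), and the shares were 5 of 142 rises (3.52%) and 8 of 42 falls (19.0%). Over all 32851 promoter windows the share was 8.30%. A match describes letters, not a bound site.

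Genes of the mature lineages were called as single members. Of 45 myeloid genes, 24 were tested, 2 rose and 1 fell, and the list's median was -0.01. Cebpb, a transcription factor of granulocytes and macrophages, was at 2.35, 4.13 and 0.981 CPM in the young and 24.6, 29.2 and 20.9 CPM in the aged libraries (log2 fold change 3.32 ± 0.51, adjusted p = 0.00176). Prtn3, the granule protease proteinase 3, rose from 62.1, 61.7 and 41.1 CPM to 123, 127 and 126 CPM (log2 fold change 1.19 ± 0.29, adjusted p = 0.0388). The Cebpb call held in all 6 fits that left out 1 library and was lost with limma-voom (adjusted p = 0.225), and the call of Prtn3 was lost in all 6, up to 0.144 without young replicate 3. With the detected-gene count as a covariate the myeloid median moved from -0.01 to -0.65. Of 48 lymphoid genes, 24 were tested and Mef2c, a transcription factor of lymphoid and megakaryocyte progenitors, rose from 73.2, 181 and 103 CPM to 269, 269.7 and 330.5 CPM (log2 fold change 1.28 ± 0.27, adjusted p = 0.0185), a call lost in 3 of the 6 fits, up to 0.0797 without aged replicate 3. The Mef2c call was also lost with the detected-gene covariate (adjusted p = 0.195). The lymphoid list's median was 0.09, and 20 of its genes were at 0 in all 6 bulk-HSC libraries.

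Erythroid genes went both ways. Car1, the carbonic anhydrase of red cells, was at 30.2, 129 and 37.8 CPM in the young and 0.441, 0 and 0 CPM in the aged libraries (log2 fold change -8.68 ± 1.84, adjusted p = 0.0262). In ST-HSCs the mean of Car1 was 20.9 CPM in the young and 17.5 CPM in the aged group, and in LT-HSCs it was 0 CPM at either age. Hba-a2, an alpha globin gene with a near-identical copy in Hba-a1, was listed at 0 in all 3 young libraries and at 21.3, 13.8 and 30.0 CPM in the aged ones, at least 147-fold higher over a floor of 3 counts in each young library (adjusted p = 0.0467). Klf1, the master regulator of red cell genes, was at 0, 5.31 and 21.4 CPM against 0, 0.658 and 0.537 CPM and did not pass (adjusted p = 0.436). The erythroid cell markers, 3 of 8 tested, summed to 7.22 to 23.8 CPM in the young and 19.4 to 50.1 CPM in the aged libraries. Without 1 library the Car1 call was lost in 4 of 6 fits, up to 0.119, and the Hba-a2 call in all 6, up to 0.13, both without aged replicate 3.

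Markers of some other cells in the marrow were at or near 0, and those of others were not. Endothelial markers, 5 of 8 tested, summed to 357 to 392 CPM in the young and 374 to 432 CPM in the aged libraries. Most of that came from Tie1. Neutrophil and monocyte markers, 5 of 10 tested, summed to 108 to 147 CPM and 109 to 125 CPM, mostly from Lyz2. In both lists 0 members were called. Of 8 B cell markers 7 were at 0 in all 6 libraries, among them Cd79a, and Cd3e, Cd3d and Cd3g of the T cell receptor complex lay under the filter. The T and NK cell list, 3 of 9 tested, summed to 6.44 to 20.6 CPM in the young and 52.6 to 65.5 CPM in the aged libraries. Most of that came from Klrb1c, which encodes NK1.1 and rose from 6.27, 1.27 and 6.73 CPM to 50.6, 52.8 and 59.3 CPM (log2 fold change 3.51 ± 0.77, adjusted p = 0.0227), a call lost in all 6 fits without 1 library, up to 0.0698 without young replicate 2. With the detected-gene covariate the log2 fold change of Klrb1c was 1.97 (adjusted p = 0.452). Macrophage markers, 7 of 8 tested, all had negative log2 fold changes, and they summed to 38.2 to 60.9 CPM in the young and 6.33 to 8.28 CPM in the aged libraries. Of these, the complement genes C1qb and C1qc were at 11.8, 0 and 5.56 CPM and 10.1, 23.3 and 4.39 CPM in the young libraries and at 0 in all aged ones. No macrophage marker was called by edgeR or limma-voom, 2 had an unadjusted p under 0.05, and DESeq2 called 3. Plasma cell markers, 3 of 5 tested, were led in 1 aged library by Jchain, the joining chain of antibodies, at 0, 2.09 and 2.24 CPM in the young and 59.3, 0.557 and 2.73 CPM in the aged libraries. The part of these cells in the results above was not tested.

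Genes of dividing cells mostly had lower levels in aged bulk-HSCs, while few single genes passed the test. Of 60 tested DNA replication genes 48 had a negative log2 fold change, of 60 mitosis genes 49, and of 64 clustered histone genes 57. Over all genes, 6019 of 12808 had a negative one. Over all genes, 9.29% were lower in every aged than in every young library, against 19 of 60 replication, 15 of 60 mitosis and 22 of 64 histone genes. Replication genes summed to 3232 to 3909 CPM in the young and 2626 to 2943 CPM in the aged libraries, mitosis genes to 1208 to 2219 CPM in the young and 989 to 1286 CPM in the aged libraries and histone genes to 3177 to 5006 CPM in the young and 2307 to 3401 CPM in the aged libraries. These sums include members under the expression filter. The replication sums did not overlap between ages, and those of mitosis and histones did. With the detected-gene count as a covariate the medians were -0.26 for replication, -0.28 for mitosis and -0.17 for histones, against -0.41, -0.58 and -0.62 without it. In the fit across all genes edgeR called 0 replication genes, 1 mitosis gene and 1 histone gene lower. At an unadjusted p under 0.05 these lists held 13, 9 and 20 lower members, DESeq2 called 4, 2 and 5, and limma-voom called 1 in each.

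The replicative helicase subunits Mcm5 and Mcm6 had the smallest p-values of the replication list. Mcm5 was at 111, 140.4 and 101 CPM in the young and 50.1, 81.7 and 66.6 CPM in the aged libraries (log2 fold change -0.83 ± 0.23, adjusted p = 0.0825). Mcm6 stood at 292, 293 and 284 CPM and 200.2, 202 and 162 CPM (log2 fold change -0.62 ± 0.19, adjusted p = 0.11). Chaf1a, the histone chaperone that loads nucleosomes behind the fork, had a log2 fold change of -0.91 ± 0.29 (adjusted p = 0.131). Neither helicase gene's ages overlapped, and neither passed. Of mitosis genes, Smc4, a core subunit of condensin, fell from 139.8, 171 and 192 CPM to 118, 93.3 and 64.7 CPM (log2 fold change -0.86 ± 0.21, adjusted p = 0.0419), a call lost in 4 of the 6 fits without 1 library, up to 0.204 without aged replicate 3. Mki67, the proliferation marker Ki-67, was at 184, 275 and 371 CPM against 114, 143 and 96.0 CPM (log2 fold change -1.23 ± 0.38, adjusted p = 0.117). Hist1h2ao, an H2A gene with near-identical copies, was at 1.01, 31.2 and 51.5 CPM and 0.308, 0.658 and 0.732 CPM (log2 fold change -5.61 ± 1.42, adjusted p = 0.0494) and was lost in 5 of the 6 fits, up to 0.2 without aged replicate 1. Hist1h1b, a linker histone gene, was at 38.2, 79.2 and 60.3 CPM against 7.97, 23.5 and 10.1 CPM and did not pass (log2 fold change -2.09 ± 0.68, adjusted p = 0.143). Ccnd1, the G1 cyclin D1, went the other way and was the 1 of 31 G1 and cell cycle brake genes called, from 89.0, 82.7 and 77.5 CPM to 168, 149.8 and 184 CPM (log2 fold change 1.01 ± 0.21, adjusted p = 0.0185), lost in 3 of the 6 fits, up to 0.082 without aged replicate 3. With the detected-gene covariate the log2 fold change of Ccnd1 was 0.59 (adjusted p = 0.323). Cdkn1a, which encodes the cell cycle inhibitor p21, was listed at 0 in all young libraries and at 3.70, 4.41 and 6.93 CPM in the aged ones (a ratio of at least 33.9, adjusted p = 0.0615). DNA repair genes, 52 tested, had a median of -0.23 with 0 called by edgeR, 1 member higher and 6 lower before adjustment (p under 0.05), and 3 lower by DESeq2 and 1 by limma-voom.

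The promoters of Mcm5 and Mcm6 are given in the same form, because helicase genes are classical E2F targets and both windows hold the letters. Capitals mark the E2F letters TTTGGCGC or TTTCGCGC on either strand, and neighbouring matches overlap within one run of capitals.
Mcm5 promoter (chr8:75109259-75109558, plus strand): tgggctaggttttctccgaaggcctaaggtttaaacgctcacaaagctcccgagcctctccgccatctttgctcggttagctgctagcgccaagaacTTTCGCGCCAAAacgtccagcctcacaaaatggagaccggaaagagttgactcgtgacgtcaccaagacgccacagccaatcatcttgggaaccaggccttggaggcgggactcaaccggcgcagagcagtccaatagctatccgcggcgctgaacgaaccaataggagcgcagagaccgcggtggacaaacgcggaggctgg
Mcm6 promoter (chr1:128359656-128359955, minus strand): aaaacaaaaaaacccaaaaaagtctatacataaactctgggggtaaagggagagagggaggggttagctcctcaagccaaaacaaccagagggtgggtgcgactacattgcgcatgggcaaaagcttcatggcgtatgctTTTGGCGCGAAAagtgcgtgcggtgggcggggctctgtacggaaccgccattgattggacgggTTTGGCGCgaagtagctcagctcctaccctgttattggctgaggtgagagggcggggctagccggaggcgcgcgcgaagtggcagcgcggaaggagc
Mcm5 held 2 matches, which began 153 and 149 bases before the start site, and Mcm6 held 3, which began 110, 106 and 47 bases before it. Of the replication list, 14 of the 49 genes with a promoter in the table held E2F letters (28.6%), against 175 of 9677 tested genes (1.81%) and 0.813% of all promoter windows. Among the replication genes lower in every aged library, 8 of 16 held them. None of the 142 rises and none of the 42 falls with a promoter did, and no clustered histone gene had a promoter in the table.

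Apoptosis, p53, stress and detoxification lists held from 1 to 4 calls each, beside 1.53% of all genes called higher and 0.445% lower. Calls made up 8% of the tested apoptosis regulators and 8% of the tested detoxification genes. Bcl2, the inhibitor of mitochondrial apoptosis, was at 128, 125 and 113 CPM in the young and 203, 225 and 208 CPM in the aged libraries (log2 fold change 0.80 ± 0.16, adjusted p = 0.0113), lost without aged replicate 2 (adjusted p = 0.0536) and with the detected-gene covariate (adjusted p = 0.0863). Xiap, a caspase inhibitor, rose by 1.08 ± 0.27 (adjusted p = 0.045), and these were the 2 calls among 25 tested apoptosis regulators. Plk2, a p53-responsive kinase, rose from 26.97, 45.2 and 13.6 CPM to 107, 158 and 164 CPM (log2 fold change 2.32 ± 0.34, adjusted p = 0.00132) and was the 1 of 40 p53 targets called, with a list median of 0.28 that fell to 0.01 with the detected-gene count as a covariate. Mdm2, the ubiquitin ligase of p53, had a log2 fold change of 0.57 ± 0.24 (adjusted p = 0.279). In the stress list, Nupr1, a stress-induced nuclear protein, rose by 1.85 ± 0.37 (adjusted p = 0.0141), and Hspa8, the constitutive Hsc70 chaperone, fell from 1389, 1351 and 1674 CPM to 747, 1064 and 1174 CPM (log2 fold change -0.56 ± 0.14, adjusted p = 0.0467). Of 50 antioxidant and detoxification genes 4 rose, namely Aldh1a1, Gpx7, Sult1a1 and Gstm1. Gstm1, a glutathione transferase, went from 119, 98.7 and 87.7 CPM to 145, 155 and 167 CPM (log2 fold change 0.61 ± 0.15, adjusted p = 0.037), and Sult1a1, a phenol sulfotransferase that overlaps Slx1b, from 65.1, 103 and 54.8 CPM to 242, 192 and 213 CPM (log2 fold change 1.54 ± 0.26, adjusted p = 0.00382). Plk2 and Sult1a1 held in all 6 fits without 1 library, while Xiap, Gstm1 and Hspa8 were lost in 5 of them and Nupr1 in 3, up to 0.154, 0.154, 0.196 and 0.0542, respectively without young replicate 3, aged replicate 3, aged replicate 1 and aged replicate 2.

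Metabolic lists held few calls, beside 1.53% of all genes called higher and 0.445% lower. Ndrg1, a hypoxia-induced gene of the glycolysis and hypoxia list, rose from 85.6, 116 and 116 CPM to 265, 258 and 269 CPM (log2 fold change 1.32 ± 0.14, adjusted p = 8.47e-05) and held in all 6 fits without 1 library. Hk2, which opens glycolysis as a hexokinase, was at 60.8, 103 and 110.4 CPM against 204, 129 and 182 CPM and did not pass (log2 fold change 0.91 ± 0.25, adjusted p = 0.0738). Scd2, a fatty acid desaturase, fell from 514, 584 and 650.2 CPM to 353, 393 and 302 CPM (log2 fold change -0.74 ± 0.19, adjusted p = 0.0468) as the 1 call among 46 genes of cholesterol and fatty acid synthesis, whose median was -0.18, and it was lost in all 6 fits without 1 library, up to 0.214 without aged replicate 3. Prcp was the 1 of 55 lysosome and autophagy genes called. Among 76 oxidative phosphorylation genes edgeR, DESeq2 and limma-voom each called 0, with 1 member higher and 4 lower before adjustment (p under 0.05). For 83 cytosolic ribosomal protein genes (median -0.03) edgeR called 0, with 1 member higher and 2 lower before adjustment, DESeq2 1 lower and limma-voom 0. The 77 mitochondrial ribosomal protein genes had 0 edgeR calls, 2 members higher and 3 lower before adjustment, 1 DESeq2 rise and 0 limma-voom calls. The 38 proteasome genes (median -0.03) had 0 calls by the 3 tools and 1 lower member at an unadjusted p under 0.05.

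Inflammatory and immediate early lists held 0 calls by edgeR. In the NF-kB and inflammation list, 46 members were tested, edgeR called 0, 2 members were higher and 3 lower before adjustment (p under 0.05), DESeq2 called 1 in each direction and limma-voom 1 lower. Nfkbia, the inhibitor that NF-kB induces, was at 109, 131 and 137 CPM in the young and 88.5, 99.1 and 85.4 CPM in the aged libraries (log2 fold change -0.46 ± 0.16, adjusted p = 0.177). The 31 immediate early genes had 0 edgeR calls, 4 members higher and 1 lower before adjustment, 2 DESeq2 rises and 0 limma-voom calls. Jun, a subunit of AP-1, was at 113, 135 and 183 CPM and 154, 488 and 261 CPM (log2 fold change 1.07 ± 0.28, adjusted p = 0.0615). Aged replicate 2 lay far above the others, and the adjusted p of Jun was 0.357 without it and 0.00636 without aged replicate 1. Of 60 interferon and antigen presentation genes 1 rose, H2-Ab1, the beta chain of MHC class II, from 20.4, 39.4 and 30.5 CPM to 80.8, 65.6 and 71.7 CPM (log2 fold change 1.27 ± 0.30, adjusted p = 0.0318), a call lost in 5 of the 6 fits without 1 library, up to 0.115 without aged replicate 1. That 1 call is 1.67% of the list, against 1.53% of all genes called higher. Before adjustment (p under 0.05) 4 members were higher and 5 lower. Nearest to the threshold was Oas2, an interferon-induced synthetase of oligoadenylates, at 38.9, 20.9 and 3.04 CPM in the young and 2.51, 2.68 and 1.17 CPM in the aged libraries (log2 fold change -3.30 ± 0.87, adjusted p = 0.0633). The partner chain of H2-Ab1, H2-Aa, was at 86.1, 81.0 and 101 CPM and 147, 131 and 142 CPM and Cd74, the class II invariant chain, at 101, 121 and 128 CPM and 193, 182 and 191 CPM, with adjusted p-values of 0.0961 and 0.14. Ribosome biogenesis (58 tested) and chromatin genes (57 tested) had 0 edgeR calls, with 1 and 2 members higher and 3 and 8 lower before adjustment, 1 lower each by DESeq2 and 0 by limma-voom. The 8 Gimap GTPases had 0 calls by the 3 tools, 1 member on each side at an unadjusted p under 0.05, and a median of -0.27.

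A separate set of 32 rises came from genes listed at 0 in all 3 young bulk-HSC libraries. Their aged means ran from 2.20 to 28.2 CPM with a median of 5.91 CPM, and against the floor of 3 counts in each young library they were at least 14.9-fold to 190-fold higher. All 32 had counts in at least 1 of the 6 young LT-HSC and ST-HSC libraries, and 12 had counts in all 6. Of all genes tested, 254 were at 0 in every young and 24 in every aged bulk-HSC library, so zeros were the more frequent at the young age. Tdrd9, a helicase of the germline piRNA pathway, was at 32.4, 19.9 and 32.3 CPM in the aged libraries (at least 190.4-fold higher, adjusted p = 0.00311). Tc2n, a protein with tandem C2 domains, was at 7.84, 13.98 and 20.9 CPM (at least 96.2-fold higher, adjusted p = 0.000241), and Il1rapl2, a relative of the interleukin-1 receptor accessory protein, at 13.5, 7.70 and 9.23 CPM (at least 68.6-fold higher, adjusted p = 0.000508). H2-T3, a nonclassical MHC class I gene with close paralogs, stood at 19.3, 15.7 and 13.7 CPM (at least 109.6-fold higher, adjusted p = 0.0341), Tm4sf1, a tetraspanin-like membrane protein, at 18.9, 7.24 and 19.1 CPM (at least 102-fold higher, adjusted p = 0.0204), and Myh14, a nonmuscle myosin heavy chain, at 12.3, 8.86 and 11.3 CPM (at least 73.1-fold higher, adjusted p = 0.0229). Young LT-HSCs and ST-HSCs had means of 7.12 and 4.11 CPM for Tc2n and 2.86 and 3.62 CPM for Il1rapl2. For Tdrd9 they were 2.08 and 0.70 CPM, and for H2-T3 2.21 and 1.59 CPM. For Tm4sf1 they were 4.01 and 0.23 CPM, and for Myh14 1.73 and 0.53 CPM. The fold bounds thus describe the listed counts of the bulk-HSC libraries alone. Tdrd9, Tc2n and Il1rapl2 held in all 6 fits without 1 library, Tm4sf1 was lost in 4, and H2-T3 and Myh14 in all 6, up to 0.0611, 0.0967 and 0.0677 without young replicate 3 in each case. With limma-voom and quality weights none of these 6 genes passed, and Tdrd9 was also lost with the detected-gene covariate (adjusted p = 0.0603).

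The remaining large rises had counts in at least 1 young library. Complement component C4b, which has a close paralog in C4a, was at 0, 0 and 6.49 CPM in the young and 83.8, 76.1 and 37.8 CPM in the aged libraries (log2 fold change 4.91 ± 1.23, adjusted p = 0.0467) and Chrm3, a muscarinic acetylcholine receptor, at 1.73, 6.54 and 0 CPM and 39.8, 41.5 and 59.7 CPM (log2 fold change 4.08 ± 1.005, adjusted p = 0.0428). Vldlr, the very low density lipoprotein receptor, chosen after its values were seen, was at 12.03, 16.97 and 5.56 CPM and 172, 148 and 118 CPM (log2 fold change 3.66 ± 0.47, adjusted p = 0.000368). Lars2, the mitochondrial leucyl-tRNA synthetase, was at 51.9, 51.7 and 31.3 CPM and 1202, 514 and 955 CPM (log2 fold change 4.31 ± 0.74, adjusted p = 0.00466). Young bulk-HSCs had a Lars2 mean of 45.0 CPM, under 387 CPM (SD 283) in young LT-HSCs and 211 CPM (SD 160) in young ST-HSCs. Its age effects there were 1.33 ± 0.66 and 2.21 ± 0.68 (edgeR adjusted p = 0.588 and 0.159). Beside the Lars2 rise stands the Rn45s difference given above, and a part of ribosomal RNA in the Lars2 counts was not tested. C4b was lost in 5 and Chrm3 in 4 of the 6 fits without 1 library, up to 0.117 without aged replicate 2 and 0.131 without aged replicate 3, and Vldlr and Lars2 held in all 6. The Lars2 call was lost with limma-voom (adjusted p = 0.171) and with the detected-gene covariate (adjusted p = 0.104).

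Large falls outside these lists were those of Skint3, Armcx4, Serpina3f, Anxa6, Kif3c, Tsc22d3 and S100a11. Tsc22d3, which encodes the glucocorticoid-induced leucine zipper protein (chrX:140539528-140600522), had the smallest adjusted p of the falls, with 344, 479.7 and 465 CPM in the young and 164, 152 and 179 CPM in the aged libraries (log2 fold change -1.38 ± 0.19, adjusted p = 0.00059). Its call held in every one of the 15 alternative analyses. Skint3, a member of an immunoglobulin-like family of thymus and skin, fell from 14.9, 16.6 and 29.0 CPM to 2.47, 2.94 and 3.56 CPM (log2 fold change -2.75 ± 0.56, adjusted p = 0.0155), and Armcx4, an armadillo repeat gene of the X chromosome, from 23.1, 27.1 and 33.6 CPM to 2.95, 5.11 and 8.54 CPM (log2 fold change -2.33 ± 0.50, adjusted p = 0.0201). Serpina3f, one of several near-identical serine protease inhibitors, fell from 18.1, 44.6 and 63.6 CPM to 5.11, 5.87 and 12.6 CPM (log2 fold change -2.42 ± 0.51, adjusted p = 0.0176). Anxa6, a calcium-dependent membrane-binding annexin, fell from 85.6, 52.7 and 76.1 CPM to 33.0, 19.5 and 23.3 CPM (log2 fold change -1.501 ± 0.29, adjusted p = 0.0103), and S100a11, a calcium-binding protein, from 49.0, 37.8 and 46.7 CPM to 16.8, 25.4 and 15.2 CPM (log2 fold change -1.22 ± 0.28, adjusted p = 0.0281). Mean S100a11 was 44.5 CPM in young bulk-HSCs, above 22.3 CPM in young LT-HSCs and 22.4 CPM in young ST-HSCs. Its age effects in LT-HSCs and ST-HSCs were -0.07 ± 0.28 and 0.27 ± 0.27 (edgeR adjusted p = 0.993 and 0.916). Kif3c, a kinesin motor, had a log2 fold change of -1.38 ± 0.34 (adjusted p = 0.0424). Of these, Anxa6 was lost in 2, Serpina3f and Armcx4 in 3, and Skint3, S100a11 and Kif3c in 4 of the 6 fits without 1 library, up to 0.0639, 0.0929, 0.0976, 0.0779, 0.146 and 0.189, the first and last without aged replicate 2, S100a11 without aged replicate 3 and the other 3 without aged replicate 1.

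Whether the same genes changed in the purified fractions was asked from the same fit. In LT-HSCs 57 genes changed with age (0.445% of genes tested) and in ST-HSCs 109 (0.851%), each from libraries other than the bulk-HSC ones. Of the 196 rises in bulk-HSCs, 174 were positive in LT-HSCs and 26 were called there, and 173 were positive in ST-HSCs and 53 were called. Over all 12808 genes, 6869 were positive in LT-HSCs and 6717 in ST-HSCs. Of the 57 falls, 48 and 51 had the same sign and 10 and 11 were called. The calls shared with LT-HSCs made up 63.2% of the LT-HSC calls and 14.2% of the bulk-HSC calls, and those shared with ST-HSCs 58.7% and 25.3%. The numbers of calls in the 3 fractions were not themselves tested against each other.

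Single genes took several forms. Aldh1a1 rose by 1.52 ± 0.21 in LT-HSCs (adjusted p = 0.00404) and 1.62 ± 0.21 in ST-HSCs (adjusted p = 0.000564), next to 1.66 ± 0.21 in bulk-HSCs. Cd34 fell in all 3, with -1.08 ± 0.20 in LT-HSCs (adjusted p = 0.0206) and -1.03 ± 0.20 in ST-HSCs (adjusted p = 0.0186), as did Anxa6 and Tsc22d3. Vwf was called in ST-HSCs (log2 fold change 1.83 ± 0.21, adjusted p = 0.000119) and not in LT-HSCs (0.40 ± 0.20, adjusted p = 0.606), and the difference between these fractions was not tested. Myb had log2 fold changes of 0.05 ± 0.11 in LT-HSCs and -0.13 ± 0.11 in ST-HSCs against -0.58 ± 0.11 in bulk-HSCs, and Cebpb of 0.80 ± 0.46 and 1.59 ± 0.47 against 3.32 ± 0.51. Tests of these differences did not pass, with adjusted p-values for Myb of 0.39 against LT-HSCs and 0.739 against ST-HSCs and for Cebpb of 0.528 and 0.765. Mean Myb in aged bulk-HSCs was 469 CPM, under 554 CPM in aged LT-HSCs and 682 CPM in aged ST-HSCs. Mean Cebpb in young bulk-HSCs was 2.49 CPM, under 17.9 CPM in young LT-HSCs and 7.45 CPM in young ST-HSCs. Why these bulk-HSC means lay outside those of both fractions was not tested.

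**Figure D4:**
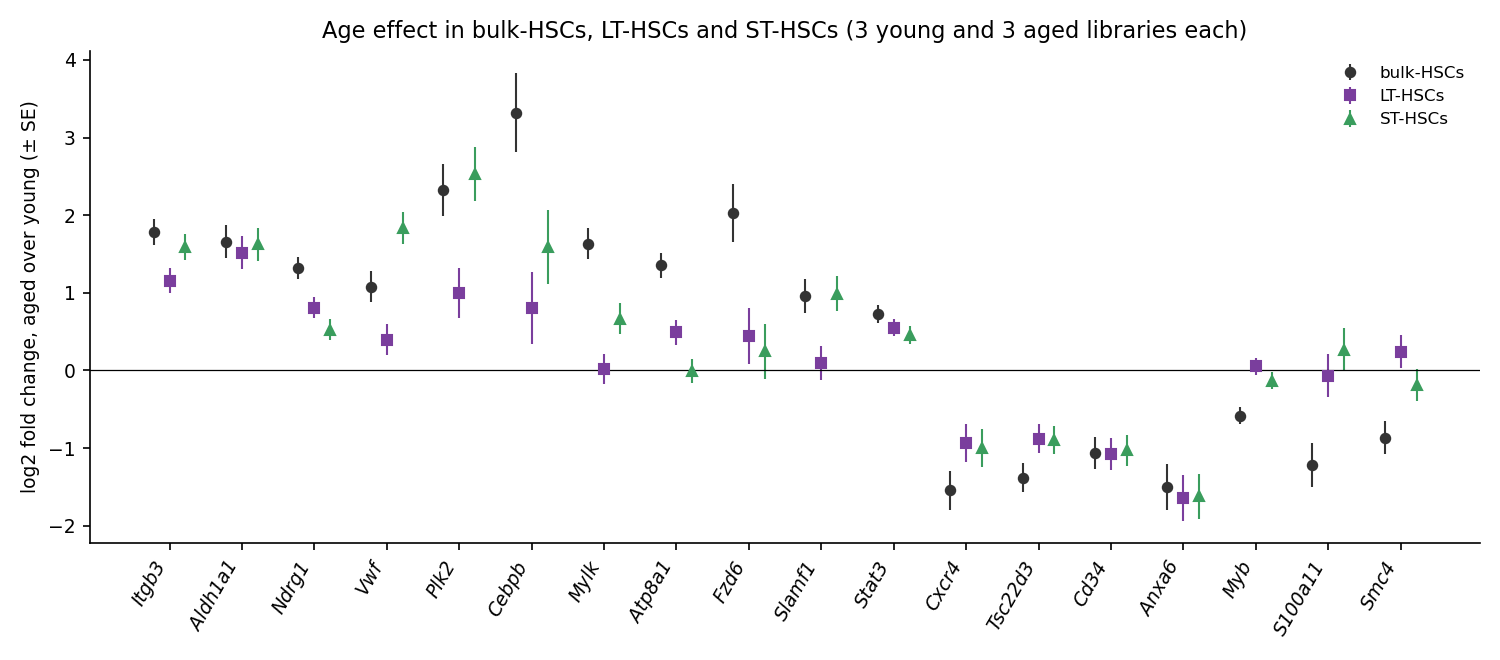
Log2 fold change with age (y axis, with its SE) of 18 genes called in bulk-HSCs, in bulk-HSCs (circles), LT-HSCs (squares) and ST-HSCs (triangles). Aldh1a1 and Cd34 have like values in the 3 fractions, while Atp8a1 stands at 1.36 in bulk-HSCs, 0.49 in LT-HSCs and -0.01 in ST-HSCs.

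Direct tests of the difference between age effects called 1 gene between bulk-HSCs and LT-HSCs (0.00781% of genes tested) and 8 between bulk-HSCs and ST-HSCs (0.0625%). Atp8a1, a phospholipid flippase, had the highest counts of them. It went from 149, 146 and 136 CPM in the young to 388, 358 and 358 CPM in the aged bulk-HSC libraries (log2 fold change 1.36 ± 0.16, adjusted p = 0.000241), had a log2 fold change of -0.01 ± 0.16 in ST-HSCs, and differed between the fractions by 1.36 ± 0.23 (adjusted p = 0.0423). Mylk, the myosin light chain kinase, rose from 31.3, 35.6 and 26.1 CPM to 96.4, 78.6 and 114 CPM in bulk-HSCs (log2 fold change 1.63 ± 0.20, adjusted p = 0.000241) and had a log2 fold change of 0.02 ± 0.19 in LT-HSCs, but the difference of 1.61 ± 0.28 did not pass (adjusted p = 0.0741). Of the other 7 genes 6, among them Ttll1, were at 0 in all young bulk-HSC libraries, which the fitted difference rests on.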

How the data were processed

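RNA-seq gene counts of 18 libraries were used, 3 for each of 6 groups (bulk-HSCs, ST-HSCs and LT-HSCs at either age), and groups were taken from the sample labels. The deposited values are raw counts per gene; the authors aligned reads to mm10 with HISAT2, sorted them with SAMtools 1.7 and counted transcripts with StringTie 1.3.4d, per the study's methods and the submitters' processing notes, and whether counting used strand is not given in the sources used here. A gene listed at 0 can therefore reflect how reads were assigned among overlapping genes.

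Counts were TMM-normalized, and genes with a mean of at least 1 CPM over 18 libraries were kept (12808 of 24421). One edgeR 4.0.16 quasi-likelihood model in R 4.3.3 had 6 group means (12 residual degrees of freedom). P-values were Benjamini-Hochberg adjusted over all tested genes, and calls had an adjusted p under 0.05. Errors of log2 fold changes are SE, and levels are TMM-normalized CPM. With 3 against 3 libraries an exact permutation test cannot go below p = 0.1, so none was used. Fold bounds took a floor of 3 counts per young library, which covers counting error only. Scripts were tested on simulated counts in which 200 genes changed 4-fold with age in bulk-HSCs. There edgeR called 133 changed and 8 unchanged genes, DESeq2 149 and 57, and limma-voom 112 and 2. The alternatives were library-size and RLE scaling, other filters, a fit of the compared groups alone, DESeq2 1.42.0, limma 3.58.1 (voom with quality weights), a replicate block, detected genes as a covariate, and each bulk-HSC library left out.

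The members, gene lists and tests were chosen with earlier results of these data known. Named genes were the 12 largest rises and 12 largest falls among calls whose ages did not overlap and whose higher mean reached 10 CPM (predicted genes by count only), called list members with up to 4 others of smallest p, up to 4 genes in each direction of each difference of age effects, marker genes and Hoxb5. Some genes that the rule takes are not reported here. Of the list symbols, 8 matched no row. Promoter windows and gene spans came from RefSeq GRCm38.p6. Figures were drawn with matplotlib 3.10.9.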

Additional observations from a re-analysis of the deposited data

Results flagged for a closer look

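These genes stood out because their age effect differed between sorted fractions by the test of the difference itself, in edgeR with adjustment over all genes. Ttll1, a tubulin glutamylase subunit, differed between bulk-HSCs and LT-HSCs (adjusted p = 0.0241) and between bulk-HSCs and ST-HSCs (adjusted p = 0.0365). It was at 0 in all 3 young and at 3.83, 13.4 and 5.52 CPM in the aged bulk-HSC libraries. Tc2n differed between bulk-HSCs and ST-HSCs at an adjusted p of 0.0365. The adjusted p against ST-HSCs was 0.0423 for each of Atp8a1, 2210408F21Rik, Epor, Gpx7 and Il1rapl2, and 0.0468 for Brdt, a testis-type bromodomain gene. Epor, the erythropoietin receptor, was the gene with the opposite sign, at 6.10, 17.4 and 9.44 CPM in the young and 4.71, 6.58 and 7.62 CPM in the aged bulk-HSC libraries, a log2 fold change of -0.80 ± 0.94. In ST-HSCs its mean was 0 CPM in the young and 5.25 CPM in the aged group. Gpx7, a glutathione peroxidase of the endoplasmic reticulum, was at 0 in all young and at 5.81, 7.29 and 2.39 CPM in the aged bulk-HSC libraries. The same held for 2210408F21Rik at 4.10, 2.58 and 7.03 CPM and for Brdt at 1.72, 7.95 and 6.44 CPM. In the young ST-HSC group the mean of Ttll1 was 9.67 CPM, that of Gpx7 6.87 CPM and that of Brdt 5.38 CPM, so these genes had counts in a young population.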

How the results depend on the processing

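The 253 age calls became 139 when only the 6 bulk-HSC libraries entered the fit, 741 with DESeq2 and 82 with the detected-gene count as a covariate, and 114 to 237 when 1 bulk-HSC library was left out. Without young replicate 1, 2 or 3 there were 224, 237 and 193 calls. Other scalings and filters, limma-voom (196 calls, 124 higher and 72 lower) and the replicate block (238 calls) stayed within 1.5 times. Of the 253 calls, 86 were made in all 6 fits without 1 library and 33 in all 15 alternatives. The 1 difference in age effect between bulk-HSCs and LT-HSCs became 0 with the compared groups alone, with limma-voom and with the replicate block, 122 with DESeq2, and 0 to 20 without 1 library. The 8 differences between bulk-HSCs and ST-HSCs became 2 with library size alone, 3 with no filter, 4 with a filter of 5 CPM, 0 with the compared groups alone, 128 with DESeq2, 0 with limma-voom, 0 with the replicate block, 5 with the covariate, and 0 to 24 without 1 library. The cause was not tested. Replicate numbers were not used as pairs: young and aged bulk-HSC libraries of the same number had deviations correlated at -0.0038, -0.011 and -0.0014, while same-number LT-HSC and ST-HSC libraries were at 0.011, 0.164 and 0.129 in the young and 0.026, 0.046 and 0.067 in the aged groups, which enter the same fit. Among named genes, the log2 fold change of Hoxb5 changed sign to -0.66 with the covariate and that of Sept7 ranged from -3.93 to 0.047 over the fits without 1 library, the latter without young replicate 3.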

Other observations

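Genes induced by glucocorticoids were looked at beside Tsc22d3, with Per1, Klf9 and Fkbp5 chosen after their values were seen. Per1, a clock gene with glucocorticoid response elements, fell from 139.5, 219 and 173 CPM in the young to 83.3, 95.8 and 93.7 CPM in the aged libraries (log2 fold change -0.96 ± 0.22, edgeR adjusted p = 0.0259), a call lost in 5 of the 6 fits that left out 1 library, up to 0.115 without aged replicate 1, in the fit of the bulk-HSC libraries alone (adjusted p = 0.0521) and with the detected-gene covariate (adjusted p = 0.232). Klf9 and Fkbp5, further induced genes, had log2 fold changes of -0.48 ± 0.20 and -0.50 ± 0.21 and did not pass (adjusted p = 0.305 and 0.291).

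Some calls lie on genes that share their span with another gene, and these too were named after their values were seen. Gm38431 (chr9:21067514-21092008, GRCm38.p6) was at 108, 116 and 129 CPM in the young and 0, 0.0506 and 0.488 CPM in the aged libraries (adjusted p = 0.00528). Raver1, a ribonucleoprotein gene inside that span, was at 0 in all young and at 125, 139.5 and 131 CPM in the aged libraries (adjusted p = 0.0503). The sum of the pair was 117 CPM in the young and 132 CPM in the aged group, a log2 ratio of 0.17. In young LT-HSCs Raver1 stood at 46.6 CPM and Gm38431 at 88.1 CPM. Gm20605 and Lrch4 on chromosome 5 formed a like pair, with means of 142 and 11.8 CPM for Gm20605 and 0 and 89.5 CPM for Lrch4. Among 243 calls with coordinates, 32 overlapped a tested gene, and for 6 of them an opposite change of the partner offset at least 50% of the change.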
